A study of Mus musculus with 8 samples.

Results

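Replication-dependent histone genes encode the core histones H2A, H2B, H3 and H4 and the linker histone H1 that package newly copied DNA. They lie in clusters named Hist1 to Hist4 and are transcribed mainly in S phase, when a cell copies its genome. Their mRNAs have no introns and, unlike other mRNAs, usually end in a conserved stem-loop in place of a poly(A) tail. The stem-loop is bound by Slbp, and the transcript is cut a short way downstream of it. Embryonic stem cells (ESCs) divide quickly and spend much of their cycle in S phase, so demand for these histones is high.

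Histone cluster members were all array probes whose gene name began with Hist1h, Hist2h, Hist3h or Hist4h. This gave 55 probes for 49 gene names, out of 39429 probes and 30175 gene names. The probes covered H1 with 6, H2A with 15, H2B with 12, H3 with 8 and H4 with 14, and by position 40 belonged to Hist1, 10 to Hist2, 3 to Hist3 and 2 to Hist4. The files use older names, and RefSeq accessions gave 46 of the 49 genes a current symbol (Hist1h1c is now H1f2 and Hist2h2ac is H2ac20, for example).

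Expression was profiled in E14 mouse ESCs grown without feeders in serum and LIF, 72 h after infection with lentivirus carrying short hairpin RNAs. The 4 groups were control KD (knockdown with a GFP hairpin), Tip60 KD, Hdac6 KD and double KD, in which Tip60 and Hdac6 were depleted together, with 2 biological replicates (A and B) each. Each culture was an infected population rather than a clone. The study asked how the class II deacetylase Hdac6 bears on the genes controlled by Tip60-p400, a complex that acetylates and remodels chromatin.

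The hairpins lowered their targets. Kat5, which encodes Tip60, stood at 39.2% of the control KD level in Tip60 KD and 40.4% in double KD. Hdac6 stood at 17.8% in Hdac6 KD and 27.3% in double KD, and at 73.9% in Tip60 KD. All 8 ESC markers passed the signal filter described below, and their summed log2 level was 8.22 to 8.37 over the arrays (Nanog and Tdgf1 had no value on the Tip60 KD replicate A array). Dppa5a, at 7.04 to 7.32, was the brightest part of that sum, and single markers did change. In Tip60, Hdac6 and double KD 2, 2 and 4 of the 8 were called, beside 40.6%, 30% and 33.8% of all probes. Pou5f1 rose by 1.01, 0.47 and 0.63, and Sox2 fell by 0.35 in double KD. Of the 5 primitive endoderm markers, Gata6, Sox7 and Foxa2 stood at the signal floor on all arrays. Gata4 and Sox17 passed the filter, and neither was called in a knockdown. Gata4 was well above background on all 8 arrays, at -1.85 and -1.29 in control KD. On replicate A of Tip60, Hdac6 and double KD it stood at the floor, against -1.14, -1.07 and -1.20 on replicate B. The SE of its changes was 0.81, so a modest change could not have been called. Sox17 was above the floor only on replicate B of Tip60, Hdac6 and double KD (-2.35, -2.52 and -2.44). The fibroblast genes Dcn and Postn stood at the floor on all arrays. Of 7 fibroblast genes 4 were tested, and Col1a1 and Thy1 rose in Tip60 KD (0.98 and 0.47) and double KD (0.79 and 0.53). The summed fibroblast level (7 genes) ran from 1.21 to 1.34 for control KD, 1.56 to 1.78 for Tip60 KD, 1.26 to 1.31 for Hdac6 KD and 1.63 to 1.75 for double KD, and its part in the histone values was not tested. Arrays differed in the background that was subtracted, from 37.2 to 114.3 intensity units, which bears on the dim members below. Within each replicate letter control KD had the highest, at 61 (A) and 114.3 (B). Tip60, Hdac6 and double KD had 37.25, 37.7 and 39.4 (A) and 89.01, 86.86 and 41.38 (B). The median raw signal of negative controls was 33 to 37 on all arrays. Values with the same background subtracted on every array are given below for some dim members.

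The sequences below show which part of a histone transcript a probe reads. Each probe is 60 bases long, and those in the H2A coding region are close to each other. Read from their first base, 6 of 7 such probes stayed open to a stop codon in their last 3 bases, so they cover the end of the coding sequence (mm9 positions, from the files). Capitals mark bases that differ from Hist1h2af.
Hist1h2af (chr13:23626113-23626172, plus strand): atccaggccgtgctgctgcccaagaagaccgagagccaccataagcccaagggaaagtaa
Hist1h2an (chr13:21878695-21878754, minus strand): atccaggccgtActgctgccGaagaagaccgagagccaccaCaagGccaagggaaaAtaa
Hist2h2aa2 (chr3:96049837-96049896, plus strand): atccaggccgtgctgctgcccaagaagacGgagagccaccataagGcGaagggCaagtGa

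Hist1h2an and Hist2h2aa2 were each identical to Hist1h2af at 55 of 60 positions. The 7 probes Hist1h2af, Hist1h2ag, Hist1h2ah, Hist1h2ak probe 1, Hist1h2an, Hist2h2aa2 and Hist2h2ac were linked by shared runs of at least 20 bases, so they can bind each other's transcripts and were read as close to 1 measurement of H2A coding RNA. The files also listed several RefSeq transcripts for 15 member probes.

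A further 6 probes held the 16-base stem-loop whole, and 2 held part of it, Hist1h2ab at its end and Hist1h2ae at its start. Stretches of 30 bases are shown for the 4 with the whole stem-loop that were tested, with the stem-loop in capitals. The positions are those of the whole probe.
Hist1h3a (chr13:23853756-23853815, minus strand): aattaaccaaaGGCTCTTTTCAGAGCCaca
Hist1h3g (chr13:23627719-23627778, plus strand): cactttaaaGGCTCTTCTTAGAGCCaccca
Hist1h4m (chr13:21903960-21904019, plus strand): caactaaaGGCCCTTTTCAGGGCCatccaa
Hist2h2aa1 (chr3:96049949-96050008, plus strand): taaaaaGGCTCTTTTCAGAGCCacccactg
The stem is made of 6 base pairs closed by a loop of 4 bases, and Hist1h3g and Hist1h4m differ from the other two in their loop or stem.

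Signals are given as log2 of the processed signal relative to the array's 75th percentile, with a floor of -2.71 below which values were not ordered. A change given as at least some size is a minimum for this background, scaling and floor only. Testing required that at least 2 arrays exceed both this floor and the scanner software's background test, which left 35 of the 55 members (32 genes). The 20 others were too dim. They were Hist1h1a, Hist1h1b and Hist1h1d, the testis genes Hist1h1t and Hist1h2aa, Hist1h2ac, Hist1h2bg, Hist1h2bq, Hist1h3i, Hist1h4c, Hist1h4j, Hist1h4i probe 3, Hist4h4 probe 1, 5 probes of Hist2 and 2 of Hist3. A change in these was not detectable with this array. The labelling kit named in the methods usually starts from poly(A) tails, so which share of a tail-less transcript pool was labelled is not known. Since the samples were bulk cultures, fewer cells that express a histone gene and less of its RNA per cell cannot be told apart.

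Histone genes moved in both directions. In Tip60 KD, 20 of 35 member probes passed an adjusted p of 0.1 (limma, Benjamini-Hochberg over all 22594 tested probes), 11 higher and 9 lower, which is 57.1% against 40.6% of all probes. In Hdac6 KD 14 passed, 3 higher and 11 lower, or 40% against 30% of all probes. In double KD 18 passed, 9 in each direction, or 51.4% against 33.8%. With 1 probe kept from each set of similar sequences, 14 of 26 passed for Tip60 KD, 7 for Hdac6 KD and 12 for double KD, or 53.8%, 26.9% and 46.2%. The median change of the 35 members was 0.09, -0.15 and 0.01 in the 3 knockdowns (Tip60, Hdac6 and double KD, the order used for triplets of values throughout), beside 0.07, 0.04 and 0.06 over all probes. The 3 comparisons share the control KD arrays.

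**Figure D1:**
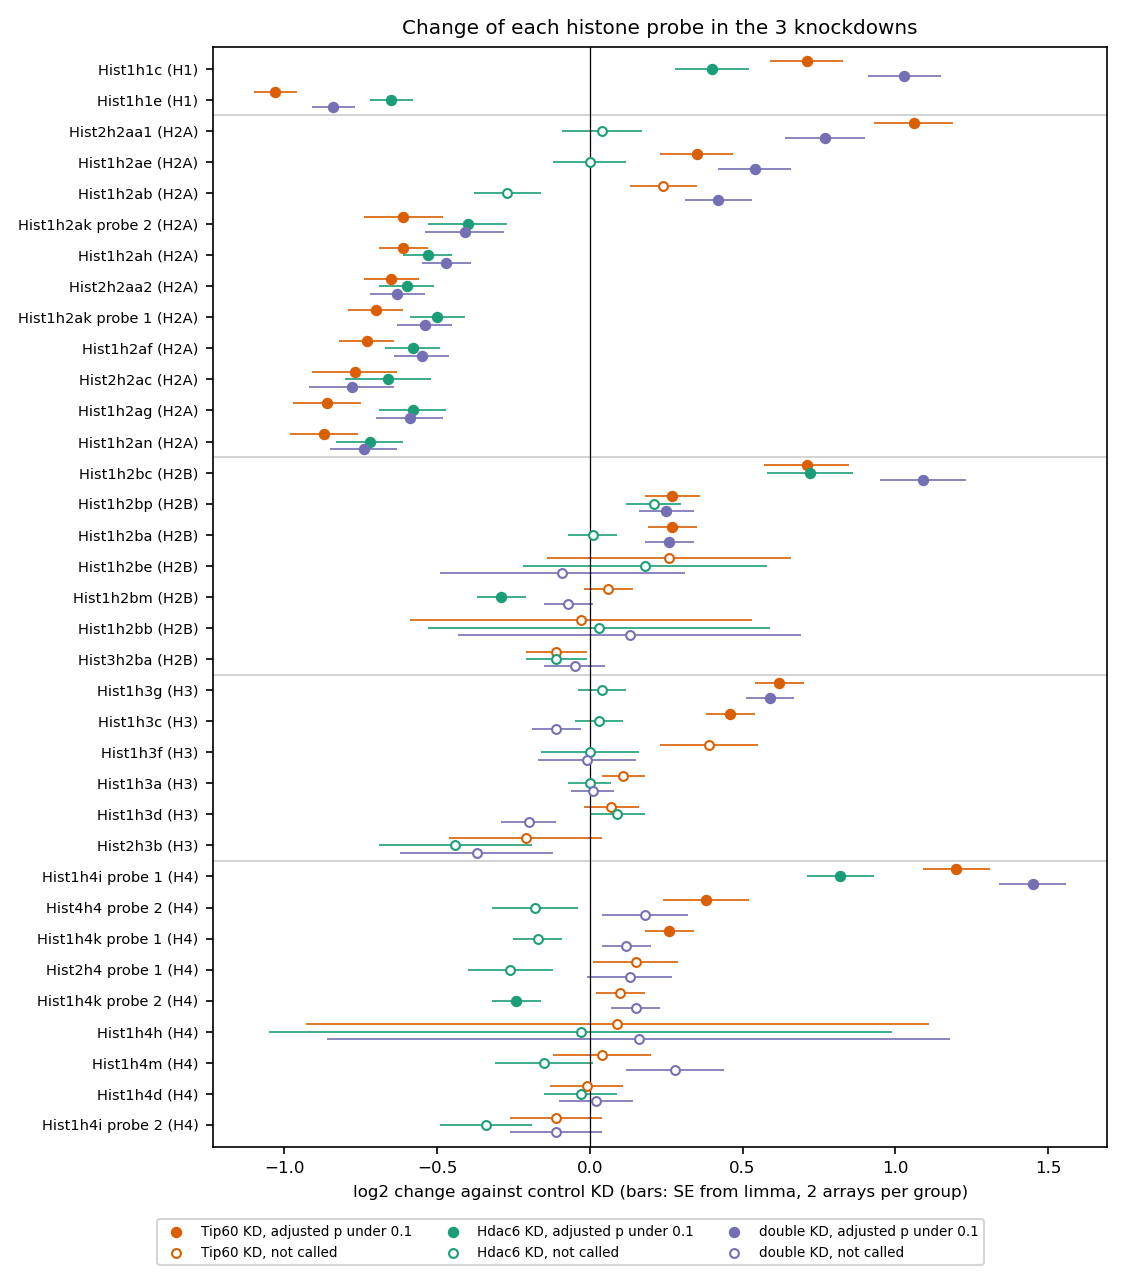
Log2 change of each tested histone probe against control KD (x axis) in the 3 knockdowns, with bars for the limma SE (2 arrays per group) and rows grouped by histone type. Filled points had an adjusted p under 0.1. The H2A coding probes lie left of 0 in all 3 knockdowns, from -0.87 to -0.40, while Hist1h1c, Hist1h2bc and Hist1h4i probe 1 lie right of 0.

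H1 members split. Hist1h1c encodes a linker histone, which binds DNA between nucleosomes. Its log2 signal was -0.82 and -0.73 (control KD), 0.06 and -0.18 (Tip60 KD), -0.31 and -0.44 (Hdac6 KD) and 0.34 and 0.17 (double KD) for replicates A and B. The control arrays were the lowest and the double KD arrays the highest, with no overlap between any groups. Hist1h1c rose by 0.71 in Tip60 KD (SE 0.12, limma adjusted p = 0.00663), by 0.40 in Hdac6 KD (adjusted p = 0.0622) and by 1.03 in double KD (adjusted p = 0.00351). The Hdac6 KD call was lost when any control KD or Hdac6 KD array was left out, with the change between 0.34 and 0.46.

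Hist1h1e, another somatic linker histone, moved the opposite way. Its signal was -1.64 and -1.71 in control KD, at the floor of -2.71 on both Tip60 KD arrays, -2.34 and -2.31 with Hdac6 KD, and -2.53 and -2.50 with double KD. All knockdown arrays lay below both control arrays. It fell by 0.65 in Hdac6 KD (SE 0.07, limma adjusted p = 0.00384) and by 0.84 in double KD (adjusted p = 0.00173). With the deposited values the Hdac6 KD change was -0.60 and did not pass (adjusted p = 0.103). In Tip60 KD Hist1h1e was at least 2.05-fold lower (adjusted p = 0.000688). With the floor 0.5 times as high the change there was -1.23. The remaining 4 H1 members were not tested.

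The H2A coding probes fell in every knockdown. The 7 similar probes gave changes of -0.87 to -0.61 with Tip60 KD, -0.72 to -0.50 with Hdac6 KD and -0.78 to -0.47 with double KD, and all 7 passed in each. Hist1h2an, in Hist1, had signals of 5.33 and 5.53 (control KD), 4.50 and 4.63 (Tip60 KD), 4.61 and 4.80 (Hdac6 KD) and 4.66 and 4.71 (double KD) for replicates A and B. It stood at 54.8%, 60.5% and 59.8% of the control KD level (limma adjusted p = 0.00287, 0.00918 and 0.00708). The control arrays were above all 6 knockdown arrays, and Hdac6 KD overlapped with both other knockdowns.

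Hist2h2ac, an H2A gene of Hist2, gave 4.96 and 5.11 (control KD), 4.13 and 4.39 (Tip60 KD), 4.27 and 4.48 (Hdac6 KD) and 4.16 and 4.34 (double KD) for replicates A and B. It fell by 0.77 (SE 0.14), 0.66 and 0.78, with limma adjusted p of 0.00847, 0.0225 and 0.0115. The Hdac6 KD call was lost without control KD replicate B (-0.58, adjusted p = 0.109) or without Hdac6 KD replicate A (-0.55, adjusted p = 0.107). Hist1h2ag, which had the brightest H2A probe by mean signal in control KD, fell by 0.86, 0.58 and 0.59. Its signals in control KD were 5.61 and 5.65, against 4.75 to 5.16 in the knockdowns. Hist1h2ah, of similar brightness (5.50 and 5.65 in control KD, 4.93 to 5.12 in the knockdowns), fell by 0.61, 0.53 and 0.47.

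Hist1h2ak had a further probe, Hist1h2ak probe 2, that shared no long run with the others and lay 273 bases upstream of probe 1. Its signal was 0.41 and 0.34 in control KD and between -0.28 and 0.13 on the knockdown arrays. It fell by 0.61, 0.40 and 0.41 (limma adjusted p = 0.0155, 0.0793 and 0.065), in the same direction as probe 1. The calls in Hdac6 KD and double KD were lost without either control KD array (-0.43 to -0.36 and -0.45 to -0.38). Without double KD replicate A the double KD value was -0.25 (adjusted p = 0.198).

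The size of the H2A decrease has to be read beside other bright probes. Among 1189 other probes with a mean signal at least as high as the dimmest of the 7, the median change was -0.18 for Tip60 KD, -0.20 for Hdac6 KD and -0.23 for double KD, and 37.8%, 29.8% and 38.3% were called lower. Of these, 94, 92 and 181 fell as far as the least changed H2A probe. Under quantile normalisation the medians of the other bright probes were -0.02, -0.01 and 0.00. The 7 H2A probes then changed by -0.75 to -0.48, -0.57 to -0.38 and -0.60 to -0.25, with 7, 7 and 6 called. The direction was the same under both scalings, and the falls were smaller under the latter in all 3 knockdowns. With the deposited log2 values the 7 changes ran from -0.78 to -0.48, -0.58 to -0.36 and -0.53 to -0.29. The calls numbered 7, 6 and 7, and the exception was Hist2h2ac in Hdac6 KD (-0.50, limma adjusted p = 0.107). The smallest falls in double KD with these values included -0.29 for Hist1h2af and -0.33 for Hist2h2aa2.

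Sequence similarity reaches beyond the clusters. Of the 7 probes, 6 shared runs of 17 to 38 bases with the probe of H2afj, an H2A gene outside the clusters, which itself fell by 0.51, 0.59 and 0.52. Another probe, designed to an Ensembl transcript without a gene name, shared runs of 18 to 34 bases with 4 of the 7 and changed by -0.92, -0.61 and -0.62. The transcripts that gave the H2A signal cannot be separated with these probes.

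**Figure D2:**
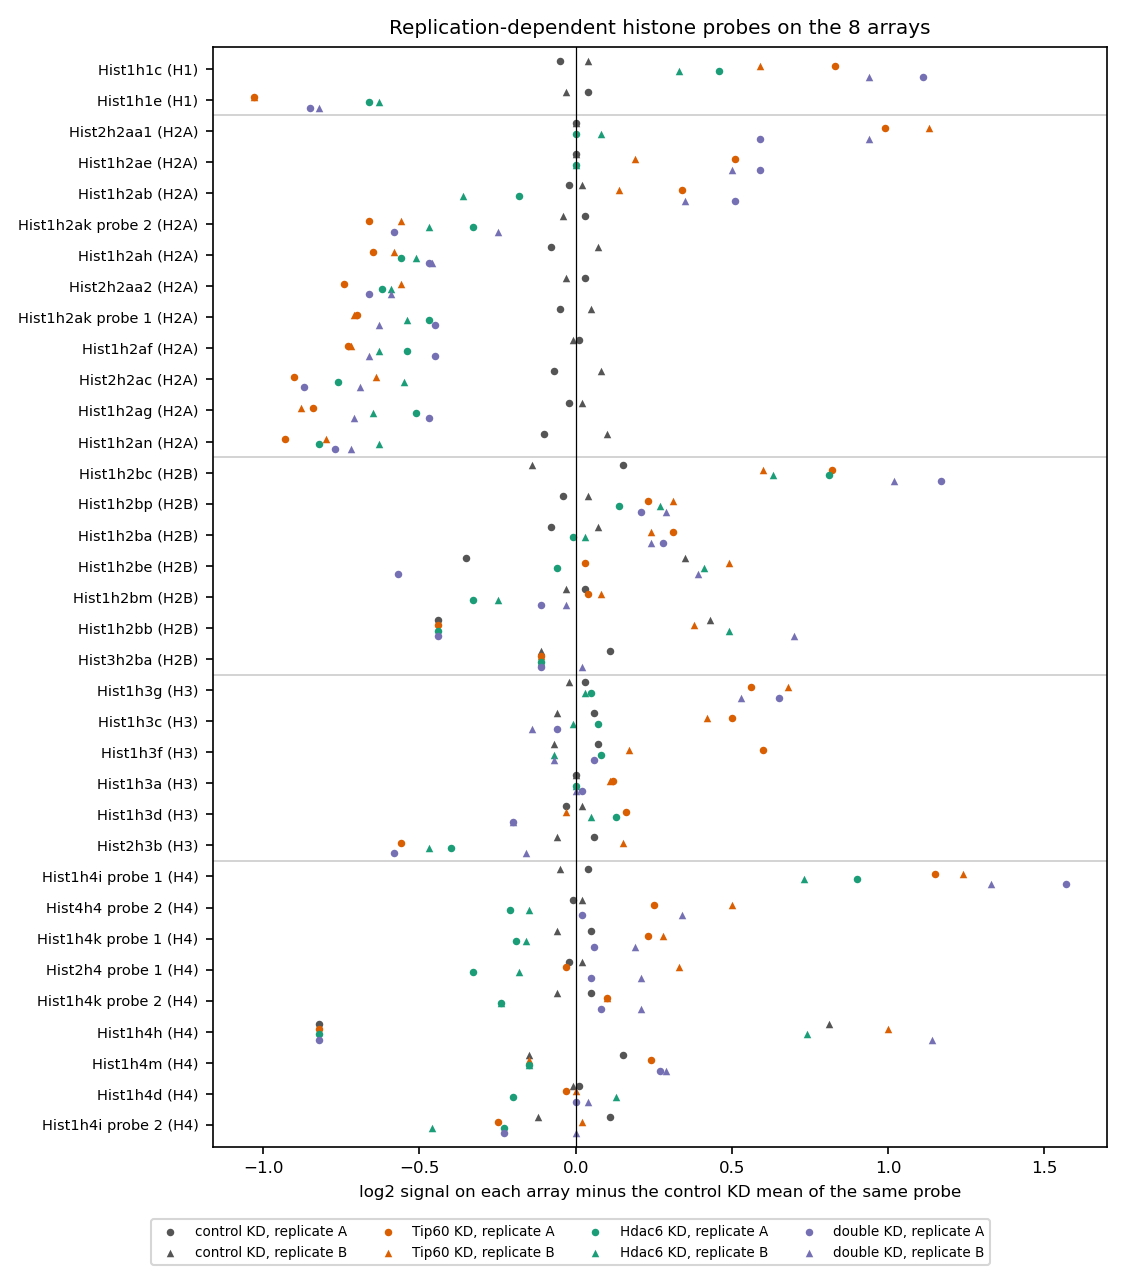
Log2 signal of each tested histone probe on each of the 8 arrays minus that probe's control KD mean (x axis), with circles for replicate A and triangles for replicate B. The H2A coding probes of the 6 knockdown arrays all lie below the control arrays, and Hist1h4h and Hist1h2bb separate by replicate letter in every group.

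The 3 tested H2A probes with stem-loop sequence were dim, with log2 signals below -1 on every array. Hist2h2aa1 gave the floor value of -2.71 on both control KD arrays, -1.72 and -1.58 with Tip60 KD, -2.71 and -2.63 with Hdac6 KD, and -2.12 and -1.77 with double KD. Tip60 KD and double KD arrays lay above all control KD and Hdac6 KD arrays. With the reported background and floor it was at least 2.09-fold higher in Tip60 KD and 1.70-fold higher in double KD (limma adjusted p = 0.00268 and 0.0106). In Hdac6 KD, where a fall could not be measured, the difference was 0.04 (adjusted p = 0.887). In control KD 1 of 2 arrays was well above background. With the same background subtracted on every array, the log2 changes were 1.01 and 0.66 (adjusted p = 0.016 and 0.0754). These are below the 1.06 and 0.77 of the reported fit. With normexp background correction the double KD change was 0.57 and did not pass (adjusted p = 0.212).

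Hist1h2ae, whose probe starts within the stem-loop, was at the floor on all control KD and Hdac6 KD arrays. Its signal was -2.20 and -2.52 in Tip60 KD and -2.12 and -2.21 in double KD. These stood at least 1.27-fold and 1.46-fold higher than control KD (limma adjusted p = 0.0693 and 0.0225), and the Tip60 KD call was lost under 7 of 8 omissions of an array (0.19 on the log2 scale without Tip60 KD replicate A). The double KD call was lost without double KD replicate A (0.50, adjusted p = 0.101). Hist1h2ab rose in double KD by 0.42 (SE 0.11, adjusted p = 0.0436), but the value was 0.23 with normexp or with the same background on every array and 0.18 with the deposited values (adjusted p = 0.215, 0.25 and 0.651). The call was also lost without either control KD array (0.40 and 0.44) or double KD replicate A (0.34). Its changes of 0.24 in Tip60 KD and -0.27 in Hdac6 KD did not pass (adjusted p = 0.177 and 0.149), though both passed with the replicate letter as a block (0.0469 and 0.0346).

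Neighbouring probes could give opposite values. Hist2h2aa2 and Hist2h2aa1 are mapped to the same strand of chromosome 3 with 52 bases between the probes, and the files list the Hist2h2aa1 transcript for both. The upstream coding probe, Hist2h2aa2, had signals of 4.86 and 4.80 in control KD and 4.09 to 4.27 on the knockdown arrays. It fell by 0.65, 0.60 and 0.63 (limma adjusted p = 0.00354, 0.00826 and 0.00615), while the downstream probe rose in Tip60 KD and double KD. Hist1h4i behaved similarly in part. Its probe 1, designed to a cDNA clone, lies 28 bases downstream of probe 2, and only probe 1 passed in the 3 knockdowns. Probe 2 also shared runs of 16 to 21 bases with probes of 3 other genes.

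**Figure D3:**
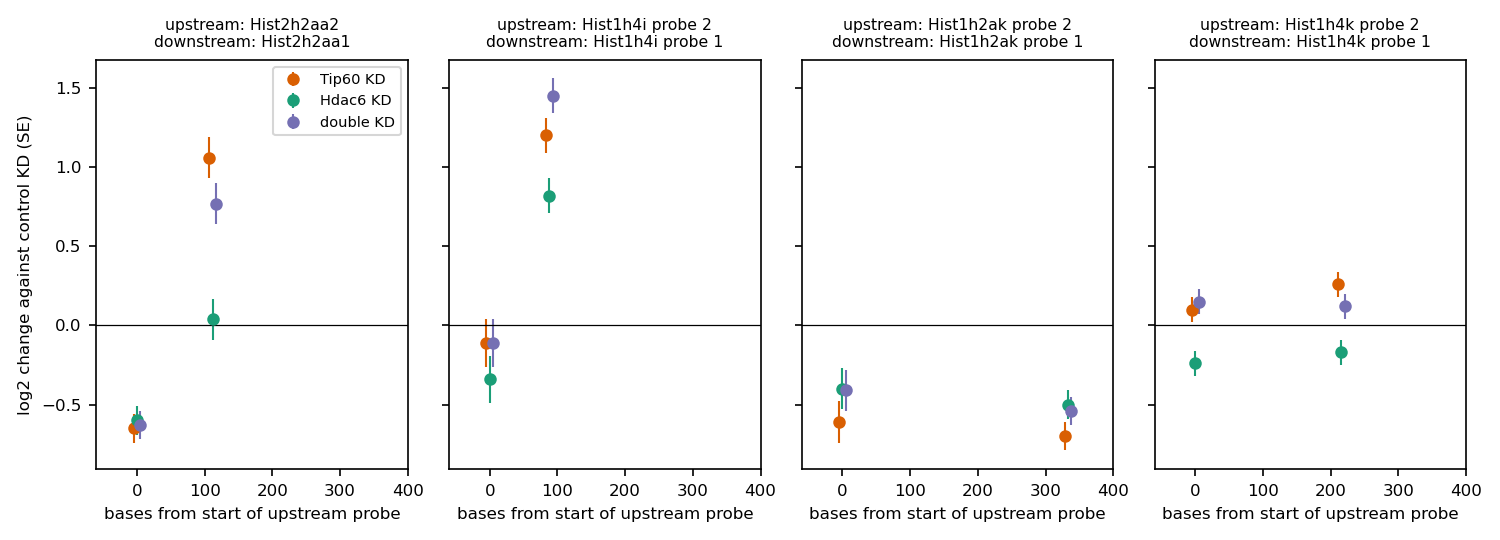
Log2 change against control KD (y axis, bars for the limma SE) for pairs of tested probes at 1 locus, placed by their distance in bases along the transcript strand. At Hist2h2aa the upstream probe lies near -0.6 in all knockdowns and the downstream probe reaches 1.06 in Tip60 KD. The Hist1h2ak and Hist1h4k pairs keep the same side of 0 for each knockdown.

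Of the 6 tested probes with a whole or partial stem-loop, Hist2h2aa1, Hist1h2ae and Hist1h3a stood at the floor on both control KD arrays. A decrease could not be measured for them, and no count over the stem-loop probes is given. Only Hist1h2ab and Hist1h3g were above the floor on all 8 arrays.

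Of 7 tested H2B members 3 rose in Tip60 KD and 3 in double KD, and in Hdac6 KD 1 rose and 1 fell, beside 40.6%, 33.8% and 30% of all probes called there. Hist1h2bc, a core H2B gene of Hist1, had signals of -0.91 and -1.20 (control KD), -0.24 and -0.46 (Tip60 KD), -0.25 and -0.43 (Hdac6 KD) and 0.11 and -0.04 (double KD) for replicates A and B. Both control arrays were below all others, both double KD arrays were above all others, and the single knockdowns overlapped. It rose by 0.71 (SE 0.14), 0.72 and 1.09, with limma adjusted p of 0.0133, 0.0198 and 0.00507. With the deposited values the Hdac6 KD change was 0.47 and did not pass (adjusted p = 0.115).

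Hist1h2ba, the testis H2B variant, had the brightest H2B probe by the naming rule. It gave -0.33 and -0.18 (control KD), 0.06 and -0.01 (Tip60 KD), -0.26 and -0.22 (Hdac6 KD) and 0.03 and -0.01 (double KD) for replicates A and B. It rose by 0.27 in Tip60 KD and 0.26 in double KD (limma adjusted p = 0.0512 and 0.0704), and its change in Hdac6 KD was 0.01 (adjusted p = 0.947). Both calls were lost without control KD replicate A (0.20 and 0.19), and the Tip60 KD value was 0.16 (adjusted p = 0.296) with the GC trend removed. Hist1h2bp rose by 0.27 and 0.25 in Tip60 KD and double KD (adjusted p = 0.0619 and 0.0912), but with the same background subtracted on every array the values were 0.09 and 0.06. Omission of any 1 of the 8 arrays ended its double KD call as well. Hist1h2bm fell by 0.29 in Hdac6 KD (adjusted p = 0.0454), a call lost with normexp (-0.19) and without any control KD or Hdac6 KD array (-0.33 to -0.25). Hist1h2bb, Hist1h2be and Hist3h2ba passed in no knockdown, and Hist1h2bb was 0.82 to 1.14 higher on replicate B than on replicate A in every group.

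H3 gave 2 called genes. Of its 6 tested members, 2, 0 and 1 were called across the 3 knockdowns, beside 40.6%, 30% and 33.8% of all probes. Hist1h3g, with a stem-loop probe, had signals of -1.76 and -1.81 (control KD), -1.23 and -1.11 (Tip60 KD), -1.74 and -1.76 (Hdac6 KD) and -1.14 and -1.26 (double KD) for replicates A and B. The arrays formed a higher set of Tip60 KD and double KD and a lower set of control KD and Hdac6 KD. It rose by 0.62 and 0.59 in the former (SE 0.08, limma adjusted p = 0.00352 and 0.00636), with 0.04 in Hdac6 KD (adjusted p = 0.816).

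Hist1h3c gave 0.64 and 0.52 (control KD), 1.08 and 1.00 (Tip60 KD), 0.65 and 0.57 (Hdac6 KD) and 0.52 and 0.44 (double KD) for replicates A and B. Only the Tip60 KD arrays stood apart, with a rise of 0.46 (limma adjusted p = 0.00987), which became 0.33 (adjusted p = 0.157) once a trend with probe GC content was removed. Hist1h3d, with the brightest H3 probe by the naming rule, changed by 0.07, 0.09 and -0.20 and passed in no knockdown (adjusted p = 0.623, 0.546 and 0.172), though it did in double KD with the replicate letter as a block (0.075). Hist1h3f, Hist1h3a and Hist2h3b passed in no knockdown, and the Tip60 KD replicates of Hist2h3b stood at -2.64 and -1.93. Hist1h3f, which shares a long run with Hist1h3c, changed by 0.39 in Tip60 KD and passed there with the block (adjusted p = 0.0148).

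Of 9 tested H4 members, 3, 2 and 1 were called across the 3 knockdowns, beside 40.6%, 30% and 33.8% of all probes. The clearest value came from Hist1h4i probe 1, with signals of -1.80 and -1.89 (control KD), -0.69 and -0.60 (Tip60 KD), -0.94 and -1.11 (Hdac6 KD) and -0.27 and -0.51 (double KD) for replicates A and B. No groups overlapped. It rose by 1.20 (SE 0.11), 0.82 and 1.45, with limma adjusted p of 0.0013, 0.00712 and 0.00152. Probe 2 of the same gene changed by -0.11, -0.34 and -0.11 (adjusted p = 0.642, 0.182 and 0.664), and probe 3 was too dim to test.

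Hist4h4, the single gene of Hist4, had signals of -2.11 and -2.08 (control KD), -1.85 and -1.60 (Tip60 KD), -2.31 and -2.25 (Hdac6 KD) and -2.08 and -1.76 (double KD) for replicates A and B. It rose by 0.38 in Tip60 KD (limma adjusted p = 0.0839), a call lost with the same background on every array (0.30, adjusted p = 0.366) and without either control KD array. The value was 0.25 without Tip60 KD replicate B. Hist4h4 changed by -0.18 with Hdac6 KD and 0.18 with double KD (adjusted p = 0.431 and 0.41). Hist1h4k, with the brightest H4 probe by the naming rule, rose by 0.26 in Tip60 KD on probe 1 (adjusted p = 0.0643). That value was 0.13 (adjusted p = 0.452) with the GC trend removed, and the call was lost under 5 of 8 omissions of an array (0.20 without control KD replicate B). Its probe 2 fell by 0.24 in Hdac6 KD (adjusted p = 0.0969, both arrays at the floor), a call lost without any 1 of the 8 arrays. Hist2h4 probe 1, Hist1h4d, Hist1h4m and Hist1h4h passed in no knockdown, except Hist2h4 probe 1 in Hdac6 KD with the block (-0.26, adjusted p = 0.0582). Hist1h4h was at the floor on every replicate A array and between -1.15 and -0.75 on replicate B.

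By cluster, 28 probes of Hist1 were tested, and Tip60 KD had 9 that rose and 7 that fell, Hdac6 KD 3 and 9, and double KD 8 and 7. These 16, 12 and 15 calls of 28 stand beside 40.6%, 30% and 33.8% of all probes. Hist2 had 5 tested probes, with Hist2h2aa2 and Hist2h2ac lower in all 3 knockdowns and Hist2h2aa1 higher in Tip60 KD and double KD. Its Hist2h2ab, Hist2h2bb, Hist2h2be, Hist2h3c2-ps and Hist2h4 probe 2 members were too dim to test. In Hist3 only Hist3h2ba was tested, with changes of -0.11, -0.11 and -0.05, and Hist3h2a and Hist3h2bb-ps were not.

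Within Hist1 the probes fell into 4 stretches of chromosome 13. The first, chr13:21814057-21929273, had 2 increases and 3 decreases among 8 tested probes in Tip60 KD. The third, chr13:23622937-23855947, had 5 and 2 among 15, and 40.6% of all probes were called in Tip60 KD. In each the decreases of Tip60 KD and double KD were H2A coding probes, apart from Hist1h1e in the third. Neighbours could differ, since Hist1h2af fell while Hist1h3g, in the same stretch, rose in Tip60 KD and double KD.

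**Figure D4:**
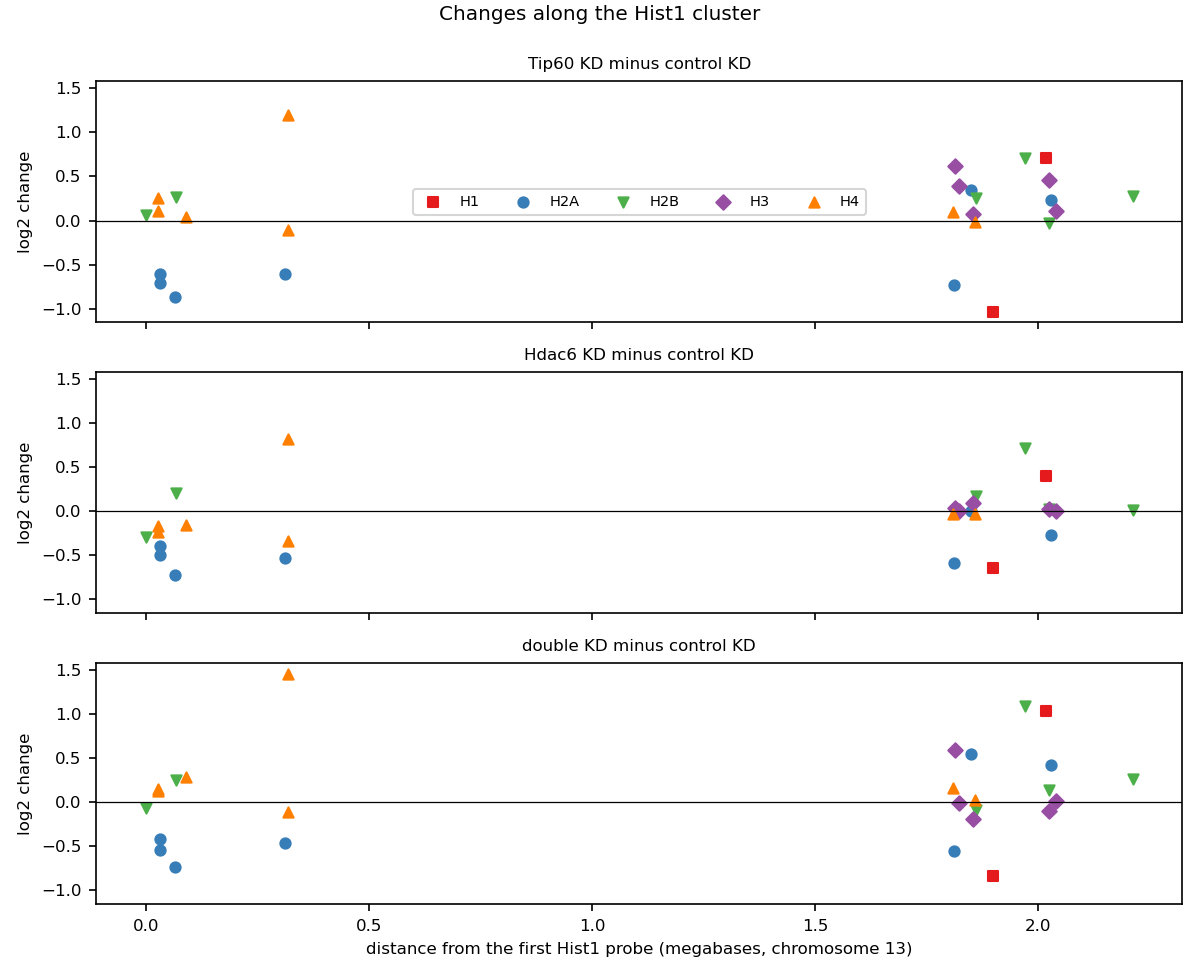
Log2 change against control KD (y axis) of tested Hist1 probes by distance from the first probe along chromosome 13 in megabases (x axis), with a panel for each knockdown and a symbol for each histone type. Hist1h2ag is left out because its listed position spans 59681 bases. H2A points below 0 and points above 0 occur in the same stretches.

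The 3 knockdowns were then set against each other directly, which asks whether Hdac6 depletion and Tip60 depletion had the same effect. Tip60 KD and Hdac6 KD differed for 11 of 35 members, 10 higher and 1 lower in Tip60 KD, or 31.4% against 23.9% of all probes. The largest differences were Hist2h2aa1 (1.02, SE 0.13, limma adjusted p = 0.00719) and Hist1h3g (0.58, adjusted p = 0.00953). Hist1h1e was lower in Tip60 KD, where it was at the floor, by at least 0.39 (-0.39, adjusted p = 0.0176), a call lost under quantile normalisation (-0.38, adjusted p = 0.147) and with the deposited values (-0.59, adjusted p = 0.118). The 8 H2A coding probes did not pass, with differences of -0.28 to -0.05. With the replicate block, which uses the pairing of arrays, Hist1h2ag did (-0.28, adjusted p = 0.0494), and 16 members passed beside 42.4% of all probes. Without either Hdac6 KD array 5 members passed, and without either Tip60 KD array 7 passed.

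Double KD and Tip60 KD differed for 1 member, Hist1h3c, which was 0.56 lower in double KD (-0.56, limma adjusted p = 0.0583), or 2.86% against 4.73% of all probes. No member passed with any 1 array left out. Since the replicate letters paired the arrays, the blocked fit is given as well, and there 8 members passed, 4 higher and 4 lower, beside 27.6% of all probes. Double KD and Hdac6 KD differed for 7 members, all higher in double KD, or 20% against 10.2% of all probes. The largest were Hist2h2aa1 (0.73, adjusted p = 0.0386) and Hist1h2ab (0.70, adjusted p = 0.0313). With the block 16 passed, of which Hist1h1e (-0.19) and Hist1h3d (-0.29) were lower, beside 29.3% of all probes. Without either Hdac6 KD array 0 did, and without double KD replicate A or B 1 or 2 did.

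Promoters of the member genes were inspected for short runs of letters. RefSeq (GRCm38.p6) gave the 250 bases before and 50 after the start for 42 of the 49 genes. The CCAAT box (letters CCAAT, either strand) is a site for the NF-Y factor, and it occurred in 36 of 42, or 85.7%, against 37.4% of all 32851 promoters. All 34 of the H1, H2A, H2B and H3 promoters held it, and 2 of 8 H4 promoters did. TATAAA occurred in 61.9% against 13.6%, and the octamer ATGCAAAT, bound by Oct1 (Pou2f1), in 31% against 1.74%. The octamer was found in 7 of 14 H2A and 6 of 9 H2B promoters and in none of the H1, H3 and H4 windows. The 120 bases before the start are shown for Hist1h1c, whose probe rose, and for Hist2h2ac, whose probe belongs to the similar H2A set that fell, with these letters in capitals.
Hist1h1c (GRCm38.p6, chr13:23738687-23738806, plus strand): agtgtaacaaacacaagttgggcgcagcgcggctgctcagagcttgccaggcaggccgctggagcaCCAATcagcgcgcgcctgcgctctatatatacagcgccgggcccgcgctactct
Hist2h2ac (GRCm38.p6, chr3:96220881-96221000, minus strand): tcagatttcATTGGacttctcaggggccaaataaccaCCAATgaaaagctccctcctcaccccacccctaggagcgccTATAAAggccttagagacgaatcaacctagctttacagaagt
Both windows hold a CCAAT box. The change of Hist2h2ac itself is not separated from that of the other H2A genes. A match to these letters is a description and not a measured binding site.

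Genes that transcribe and process histone mRNA were read from a list of 23, of which 22 were tested. Tip60 KD had 2 that rose and 4 that fell, Hdac6 KD 4 and 3, and double KD 3 and 5, with medians of -0.12, 0.09 and -0.04. These 6, 7 and 8 calls of 22 stand beside 40.6%, 30% and 33.8% of all probes. Hinfp, a zinc finger activator of H4 genes, rose in all 3 (0.84, 0.68 and 0.54, limma adjusted p = 0.00305, 0.0104 and 0.0183). The NF-Y subunits did not move together. Nfyb fell in all 3 (-0.62, -0.59 and -0.62, limma adjusted p = 0.00382, 0.00818 and 0.00586). Nfyc changed by 0.22, 0.39 and 0.53 (adjusted p = 0.253, 0.0837 and 0.0309). Nfya changed by -0.19, -0.21 and -0.35 (adjusted p = 0.148, 0.146 and 0.0324). Slbp changed by 0.15, 0.23 and -0.31 and did not pass (adjusted p = 0.389, 0.214 and 0.1). Eri1, an exonuclease that trims histone mRNA ends, fell by 0.49 in Tip60 KD and 0.41 in double KD. Cpsf3, the endonuclease that cuts the transcript, fell by 0.31, 0.34 and 0.38, and Lsm11 of the U7 particle rose by 0.47 in Tip60 KD and 0.35 in Hdac6 KD.

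S phase genes were followed as a separate list of 20, of which 18 were tested. Tip60 KD had 3 that rose and 5 that fell, Hdac6 KD 2 and 1, and double KD 2 and 5, with medians of -0.11, 0.04 and -0.05. These are 8, 3 and 7 calls of 18, read against the same shares of all probes. Rrm2, a ribonucleotide reductase subunit, changed by -0.82, -0.07 and -0.41, and Tk1, thymidine kinase, by -0.81, 0.09 and -0.56, each called in Tip60 KD and double KD only. Both differed between Tip60 KD and Hdac6 KD (-0.75 and -0.90, limma adjusted p = 0.00433 and 0.00447). The cyclin gene Ccne1 rose in all 3 knockdowns (0.66, 1.02 and 0.89), and Pcna changed by no more than 0.09 in either direction. The 3 calls in Hdac6 KD were Ccne1 and E2f1 (0.40), which rose, and Ung (-0.43), which fell. In Tip60 KD Gins2 rose by 0.73 and Mcm4 fell by 0.74. How the S phase genes bear on the H2A values was not tested.

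Histone chaperones, which carry histones to DNA, had 11 tested of 12. In Tip60 KD 3 rose and 1 fell, in Hdac6 KD 5 rose and in double KD 4 rose, beside 40.6%, 30% and 33.8% of all probes. Chaf1a, of the replication-coupled assembly factor CAF-1, rose in all 3 (0.47, 0.51 and 0.39), as did Nap1l4 (0.70, 0.39 and 0.56). Hjurp, the chaperone of the centromeric variant, fell by 0.60 in Tip60 KD. The 11 genes listed as replacement variants, which are not cluster members, had 0 increases and 6 decreases with Tip60 KD. They had 2 and 4 with Hdac6 KD, and 1 and 5 with double KD, beside the same shares. The decreases include H2afj, whose probe shares up to 38 bases with the H2A coding probes, so its fall is not separated from theirs. H2afv fell in all 3 (-0.69, -0.56 and -0.39), as did H2afy (-0.47, -0.22 and -0.81). No increase was called for a variant in Tip60 KD.

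**Figure D5:**
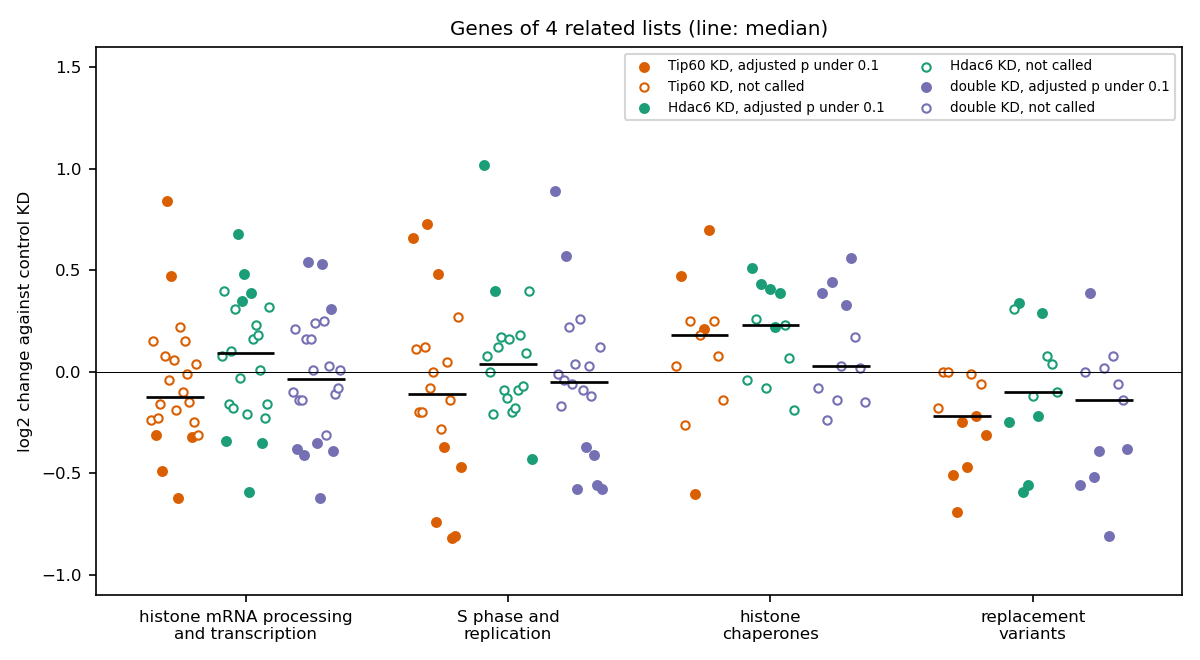
Log2 change against control KD (y axis) of tested genes in lists of histone mRNA processing and transcription, S phase, chaperones and replacement variants (x axis), 1 probe a gene. Filled points had an adjusted p under 0.1 and lines mark medians, which lie between -0.22 and 0.23.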

How the data were processed

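Total RNA from 8 cultures (4 groups of 2 biological replicates) was converted to cRNA, labelled with Cy3 and read on 1-colour Agilent 4x44K mouse arrays. The authors' scanner files, from Feature Extraction 10.7.1.1, hold fluorescence intensity per spot, namely a raw signal, a local background and a processed signal with background subtracted. The deposited value table holds log2 values in the same rank order as the raw median signal (Spearman rho 1). It was used only as an alternative.

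The processed signal was divided by each array's 75th percentile, raised to a common floor (0.1528 of it, the highest over arrays of the lowest signal well above background) and converted to log2. Probes were kept if 2 or more arrays passed both the floor and the scanner software's test against background, and spots marked as outliers were left out. Groups were compared with limma 3.58.1 in R 4.3.3 (lmFit and eBayes, all 8 arrays in 1 fit, 4 residual and 1.9 prior degrees of freedom, Benjamini-Hochberg adjusted p under 0.1, 2-sided). All p-values for single probes come from it, and the number of arrays limits the precision. For pairing, the B minus A difference was correlated across probes between groups, over 6 pairs (0.644 to 0.787), and each letter was 1 slide, so letters pair the arrays. Replicates of a group correlated at 0.986 to 0.989. On simulated data with 200 of 22389 probes changed by 1 log2 unit, the fit recovered 111, 128 and 114 for Tip60 KD, Hdac6 KD and double KD against control KD, with 12, 10 and 21 false calls.

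The members, gene lists and tests were chosen with earlier results of these data known. Named members are the 4 largest increases and decreases per knockdown, 2 each way for other comparisons, the gene with the brightest probe of each type, all genes of Hist2 to Hist4, testis variants and genes whose probes disagree. From the lists, called genes were named by size, at most 4 per list and comparison. Other members and Slbp, Nfya, Pcna and Cpsf3 are named to account for the set, with values seen. Figures were drawn with matplotlib 3.10.9. Probe positions are those of the files (mm9), and promoters come from RefSeq on another build, so the positions were not combined. Alternatives covered background correction, normalisation, floor, filter on dim probes, the deposited values, a replicate block, a GC trend, 1 probe per gene or similar set, and each array left out.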

Additional observations from a re-analysis of the deposited data

Results flagged for a closer look

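Members whose change differed between knockdowns, by a limma test of the difference itself at an adjusted p under 0.1, are listed here with that log2 difference. Between Tip60 KD and Hdac6 KD, Hist2h2aa1 (1.02), Hist1h3g (0.58), Hist4h4 probe 2 (0.55), Hist1h2ab (0.51), Hist1h3c (0.43), Hist1h4k probe 1 (0.43), Hist1h4i probe 1 (0.38), Hist1h2bm (0.35), Hist1h4k probe 2 (0.34) and Hist1h2ba (0.26) were higher in Tip60 KD, and Hist1h1e (-0.39) was lower. Between double KD and Tip60 KD, Hist1h3c (-0.56) was lower in double KD. Between double KD and Hdac6 KD, Hist2h2aa1 (0.73), Hist1h2ab (0.70), Hist1h1c (0.64), Hist1h4i probe 1 (0.64), Hist1h3g (0.55), Hist1h2ae (0.54) and Hist1h4k probe 2 (0.39) were higher in double KD. Hist2h2aa1, Hist1h2ae and Hist1h4k probe 2 had values at the floor in Hdac6 KD, and Hist1h1e was at the floor in Tip60 KD. Their differences are therefore minimum values for the reported background and scaling.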

How the results depend on the processing

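Of the members called against control KD, 14 of 20 (Tip60 KD), 7 of 14 (Hdac6 KD) and 11 of 18 (double KD) stayed called under every alternative run for single members, and none reversed. Between knockdowns 2 of 11 (Tip60 KD against Hdac6 KD), 0 of 1 and 0 of 7 did, so those counts rest on the settings. Leaving out 1 array at a time gave 16 to 19 calls in Tip60 KD, 9 to 13 in Hdac6 KD (9 without control KD replicate B or Hdac6 KD replicate A), 13 to 17 in double KD, 5 to 10 for Tip60 KD against Hdac6 KD, 0 for double KD against Tip60 KD and 0 to 6 for double KD against Hdac6 KD. In the same order the replicate block, which uses the pairing of arrays by slide, gave 22, 17, 19, 16, 8 and 16 calls. For the last 3 of these comparisons, 42.4%, 27.6% and 29.3% of all probes were called with the block. With a GC trend removed as well, the last 3 counts were 20, 8 and 16. Shares of all probes under the other alternatives are not given, so those member counts are not read against all probes. The deposited log2 values gave 9 calls in Hdac6 KD, 6 for Tip60 KD against Hdac6 KD and 2 for double KD against Hdac6 KD. One probe per similar set, an alternative chosen after seeing the data, gave 7 in Hdac6 KD. For double KD against Tip60 KD, normexp background, the same background on every array, a floor 0.5 times as high, only the groups compared and removal of the GC trend gave 0 (7 had an unadjusted p under 0.05 in the reported fit), quantile normalisation 2 and no filter on dim probes 3. For double KD against Hdac6 KD, quantile normalisation gave 3, missing values in place of the floor 4 and only the groups compared 0. The median change of members in Tip60 KD was 0.03 with the deposited values, 0.00 without the filter and -0.01 with the GC trend removed, with or without the block, in Hdac6 KD 0.00 without the filter and -0.27 for probes above the floor on all arrays, and in double KD -0.07 under quantile normalisation and -0.09 for probes above the floor on all arrays. Leaving out arrays gave medians of 0.04 to 0.14, -0.22 to -0.15 and -0.06 to 0.04. The cause of these differences was not tested. Dim probes near the floor limit the stem-loop values.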
